A study of Mus musculus with 12 samples.

Results

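Prdm1, Prdm14, Tfap2c, Nanos3 and Dnd1 are 5 genes that specify germ cells or guard them once specified. They were taken by symbol from the 35975 genes with a listed transcript, and all 5 passed the filter on low counts. Their levels were measured by RNA sequencing in mouse primordial germ cell-like cells (PGCLCs) made in culture, with 12 libraries, 3 biological replicates in each of 4 groups. All groups derive from E14TG2a, a mouse embryonic stem cell line held in medium with LIF, inhibitors of Gsk3 and MEK, and vitamin C. The cells were either wild type (WT) or TKO, the study's knockout of the DNA methyltransferase genes Dnmt1, Dnmt3a and Dnmt3b. They were primed towards epiblast-like cells and then grown for 4 days as aggregates with BMP4, BMP8, SCF, EGF and LIF. Priming lasted 40 h in WT (WT_40h) and 40, 48 or 96 h in TKO (TKO_40h, TKO_48h, TKO_96h), so in the libraries used here longer priming comes with TKO alone. The labels name no separate clones, so differences between the cultured lines and between genotypes cannot be told apart, and they do not say whether the RNA came from sorted germ cell-like cells or from whole aggregates.

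In the mouse embryo, BMP signals from neighbouring tissue turn a few epiblast cells into primordial germ cells. PRDM1 (BLIMP1) represses the somatic programme in these cells, PRDM14 restores pluripotency genes and lowers DNA methylation, and TFAP2C (AP-2 gamma) acts with PRDM1. Together they form the transcription factor core of specification. NANOS3 and DND1 are RNA-binding proteins that act on 3′ UTRs and keep the new germ cells alive.

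The deposited files hold estimated counts per transcript, which were summed per gene. CPM, the count scaled to a common normalised library size, serve to compare 1 gene between libraries. TPM, scaled to transcript length, serve to compare genes with each other. A gene is called changed at a Benjamini-Hochberg adjusted p below 0.05 in edgeR's quasi-likelihood test, adjusted over all 16178 genes tested. Libraries held 6570180 to 9114128 estimated counts. TKO_48h replicate 1 stood apart with the lowest total, 14.59% of counts in its top 10 genes (9.18 to 12.69% in the others) and 13530 genes with at least 10 counts (14420 to 15409 in the others). The targeted genes were lower in TKO but still counted: in TKO_40h against WT_40h the log2 fold change was -1.87 for Dnmt1, -2.66 for Dnmt3a and -1.95 for Dnmt3b, with an adjusted p of at most 9.9e-07. The files do not show whether these transcripts carry the knockout lesions.

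CpG dinucleotides are what the deleted enzymes methylate, so the bases upstream of the start site are shown for Prdm1 and Nanos3, the 2 of 5 members with an entry in the RefSeq promoter table (GRCm38.p6). Each run is the 250 bases before the start site in that table, 5′ to 3′ on the gene's strand, with every CpG in capitals. That site is the 5′ end of Prdm1-201 and of Nanos3-201 in GENCODE M21. Prdm1-203 and Nanos3-203 start 69753 and 8665 bases farther upstream, so both windows lie inside the span of their gene.
Prdm1, chr10:44458749-44458998, minus strand: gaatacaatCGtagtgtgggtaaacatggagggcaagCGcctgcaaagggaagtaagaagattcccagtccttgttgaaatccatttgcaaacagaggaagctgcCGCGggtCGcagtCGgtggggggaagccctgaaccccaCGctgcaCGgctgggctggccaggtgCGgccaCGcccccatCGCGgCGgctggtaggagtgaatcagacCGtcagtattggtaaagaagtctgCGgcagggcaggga
Nanos3, chr8:84176553-84176802, minus strand: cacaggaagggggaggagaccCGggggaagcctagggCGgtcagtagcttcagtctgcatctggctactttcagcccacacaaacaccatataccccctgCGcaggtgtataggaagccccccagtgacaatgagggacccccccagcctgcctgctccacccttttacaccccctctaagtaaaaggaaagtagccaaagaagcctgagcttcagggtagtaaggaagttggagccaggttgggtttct
The Prdm1 window held 15 CpGs, a count that 27.3% of 32851 such windows reach, with an observed over expected CpG ratio of 0.71. The Nanos3 window held 3, which 71.0% of windows reach, with a ratio of 0.15 at a similar GC content (56.4% against 59.2% for Prdm1). The median window held 6. DNA methylation itself was not measured here. Neither gene was called between TKO_40h and WT_40h, as given below.

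Compared per transcript length, Tfap2c had the highest mean level of the 5 genes in every group, with a mean TPM of 12.9 (WT_40h), 13.0 (TKO_40h), 15.4 (TKO_48h) and 8.46 (TKO_96h). It lay above 70.8 to 84.0% of the 21897 protein-coding genes in the files. Prdm1 followed in the 40 and 48 h groups with mean TPM of 6.49 (WT_40h), 4.75 (TKO_40h) and 7.02 (TKO_48h), and had 1.73 in TKO_96h. Prdm14 had a mean TPM of 3.25 to 4.03 over the groups. Nanos3 ranged from 1.61 to 3.30 and Dnd1 from 1.21 to 1.91 in mean TPM. TKO_96h was the group in which the mean TPM of Prdm1 lay below that of the other 4 genes. Its TPM there (1.45 to 2.30) overlapped those of Dnd1 (1.03 to 2.76) and Nanos3 (0.552 to 4.37).

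**Figure D1:**
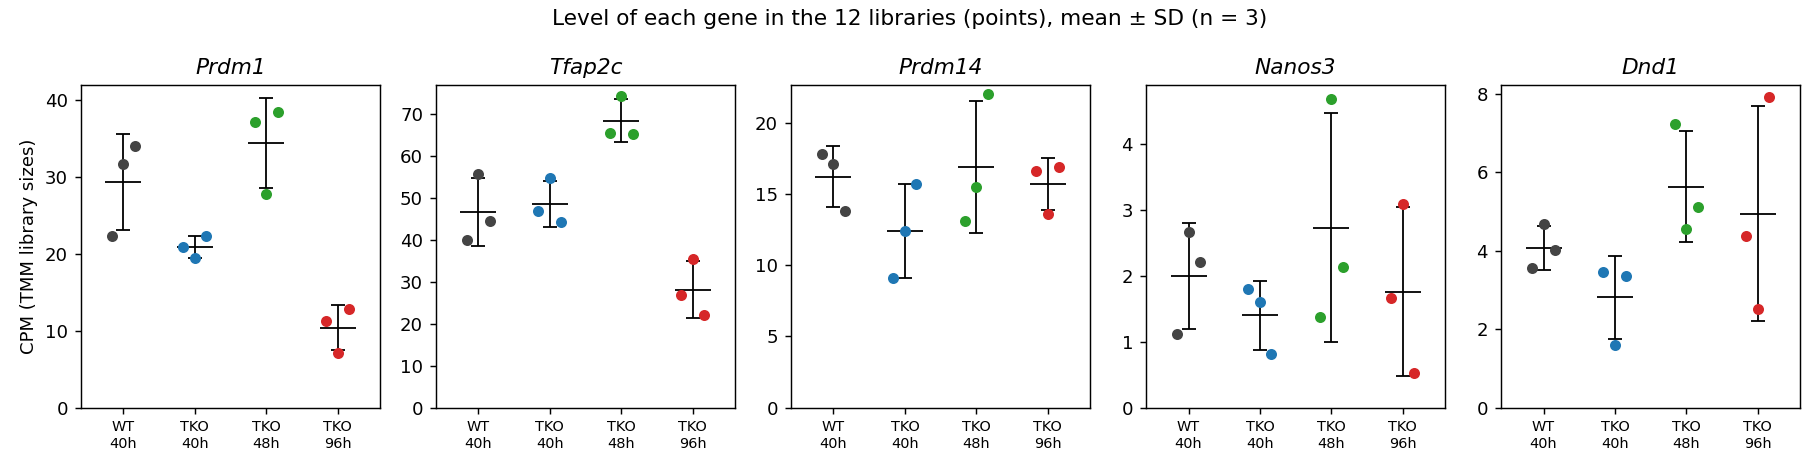
CPM (vertical axis, linear from 0) of the 5 genes in each of the 12 libraries (points), with the mean and SD of the 3 replicates of each group (bars). The 3 TKO_96h libraries lie below all 9 others for Prdm1 and Tfap2c and within the range of the others for Prdm14.

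Prdm1 (ENSMUSG00000038151, GRCm38 chromosome 10, 44437177 to 44528501, minus strand) encodes a zinc finger repressor and is the earliest known marker of germ cell precursors. In WT_40h it was at 22.3, 31.6 and 34.0 CPM and in TKO_40h at 20.9, 19.5 and 22.3 CPM. In TKO_48h it was at 37.1, 27.7 and 38.4 CPM, and in TKO_96h at 11.2, 7.14 and 12.8 CPM. All 3 TKO_96h libraries were below every other library, while WT_40h overlapped TKO_40h and TKO_48h. In TKO_96h against TKO_40h, Prdm1 was 2.02-fold lower, at a log2 fold change of -1.01 with an SE of 0.23 (adjusted p = 0.0067). It was also lower than in TKO_48h (-1.73 ± 0.23, adjusted p = 2.9e-05) and than in WT_40h (-1.49 ± 0.23, adjusted p = 0.00016).

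The order of the Prdm1 means was TKO_48h (34.4 ± 5.84 CPM, SD, n = 3), WT_40h (29.3 ± 6.21), TKO_40h (20.9 ± 1.40) and TKO_96h (10.4 ± 2.91). Of the neighbours in this order, only TKO_40h and TKO_96h differed past the threshold. TKO_40h was lower than WT_40h by a log2 fold change of -0.48 (95% interval -0.94 to -0.02), which did not pass after adjustment (adjusted p = 0.29). TKO_48h lay above TKO_40h without overlap of the libraries, by 0.71 ± 0.22, and narrowly missed the threshold (adjusted p = 0.068). That difference passed with DESeq2 (adjusted p = 0.04), with every gene of any count kept (adjusted p = 0.032), and without TKO_48h replicate 2 or TKO_96h replicate 2 (adjusted p = 0.035 and 0.047). It did not pass under the other alternatives (adjusted p up to 0.14) or without any other library (adjusted p up to 0.2).

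Tfap2c (ENSMUSG00000028640, chromosome 2, 172549593 to 172558622, plus strand) encodes a transcription factor that germ cell precursors share with trophoblast and surface ectoderm. It was at 40.1, 55.7 and 44.5 CPM in WT_40h and at 46.9, 54.8 and 44.2 CPM in TKO_40h. It was at 65.6, 74.3 and 65.2 CPM in TKO_48h and at 26.9, 35.4 and 22.0 CPM in TKO_96h. Every TKO_48h library was above, and every TKO_96h library below, all libraries primed for 40 h. Against TKO_40h, Tfap2c was 1.73-fold lower in TKO_96h, at a log2 fold change of -0.79 ± 0.17 (adjusted p = 0.0043). It was lower in TKO_96h than in TKO_48h by -1.28 ± 0.17 (adjusted p = 2.6e-05) and than in WT_40h by -0.73 ± 0.17 (adjusted p = 0.0051).

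At the matched priming time of 40 h, Tfap2c was at 48.6 ± 5.48 CPM in TKO and 46.7 ± 8.04 CPM in WT. The log2 fold change was 0.06 with a 95% interval from -0.29 to 0.41 (adjusted p = 0.93). The higher level in TKO_48h (68.4 ± 5.16 CPM) did not pass against TKO_40h (0.49 ± 0.17, adjusted p = 0.094) or against WT_40h (0.55 ± 0.17, adjusted p = 0.057). Per transcript length the 48 h libraries did not stand out: the TPM were 11.1, 22.5 and 12.6 in TKO_48h against 12.7, 14.2 and 12.2 in TKO_40h. With an offset for effective transcript length, the fall from TKO_40h to TKO_96h was -0.63 and no longer called (adjusted p = 0.079), while those from TKO_48h and from WT_40h were still called. The TPM of all 3 TKO_96h libraries (8.18, 10.2 and 6.95) were nevertheless below those of the other 9.

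Prdm14 (ENSMUSG00000042414, chromosome 1, 13113457 to 13127163, minus strand) encodes a PR domain protein of germ cells and naive stem cells. It was at 17.8, 17.1 and 13.8 CPM in WT_40h and at 9.12, 12.4 and 15.7 CPM in TKO_40h. It was at 13.1, 15.5 and 22.0 CPM in TKO_48h and at 16.6, 13.6 and 16.9 CPM in TKO_96h. The groups overlapped in all 6 comparisons, and Prdm14 was not called in any of them or in the test over all 4 groups (adjusted p = 0.49). In TKO_96h against TKO_40h the log2 fold change was 0.34 with a 95% interval from -0.19 to 0.87, which does not reach the fall estimated for Prdm1 or for Tfap2c. In TKO_40h against WT_40h it was -0.39 (95% interval -0.91 to 0.14, adjusted p = 0.52). The order of the means, TKO_48h (16.9 ± 4.63), WT_40h (16.2 ± 2.13), TKO_96h (15.7 ± 1.83) and TKO_40h (12.4 ± 3.29 CPM), held no neighbours that differed past the threshold.

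**Figure D2:**
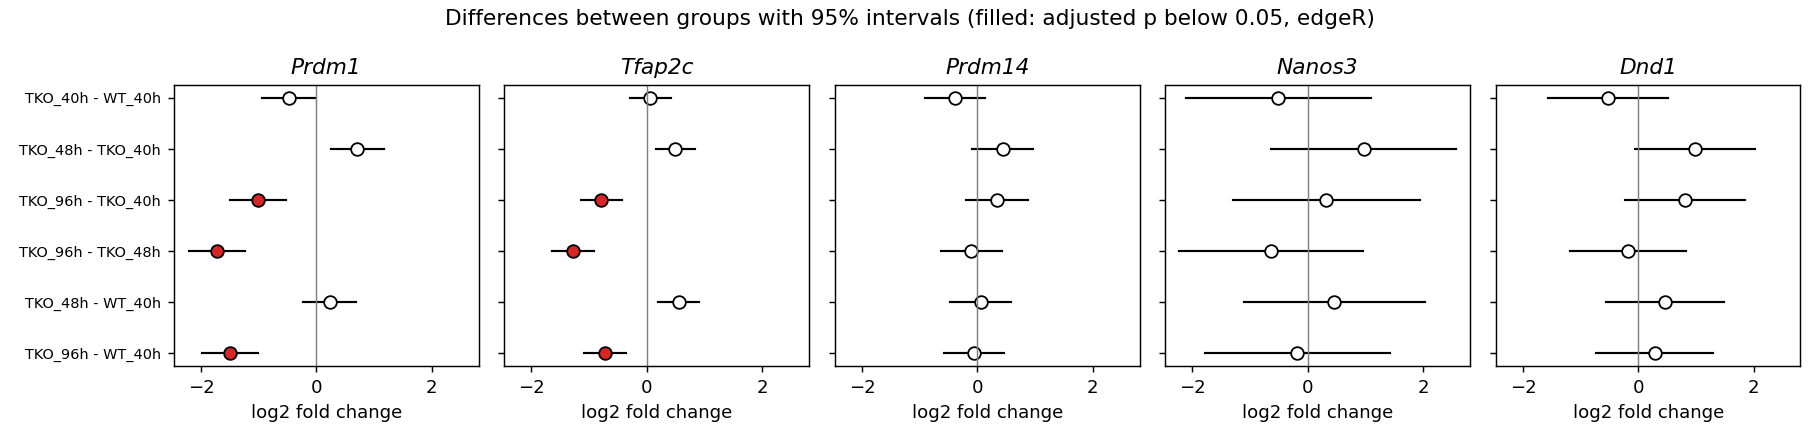
Log2 fold change (horizontal axis) with its 95% interval for each gene in 6 comparisons of groups (rows), filled where the adjusted p was below 0.05 in edgeR. The filled points are the 3 comparisons of TKO_96h with another group for Prdm1 and Tfap2c, at -1.01, -1.73 and -1.49 and at -0.79, -1.28 and -0.73; the intervals of Nanos3 and Dnd1 are the widest.

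Nanos3 (ENSMUSG00000056155, chromosome 8, 84173731 to 84185217, minus strand) encodes a zinc finger RNA-binding protein that protects migrating germ cells from apoptosis. It rested on 4 to 35 counts in a library. Its levels were 1.11, 2.67 and 2.21 CPM in WT_40h, 1.80, 1.60 and 0.815 CPM in TKO_40h, 1.37, 4.68 and 2.13 CPM in TKO_48h, and 1.66, 3.08 and 0.528 CPM in TKO_96h. The groups overlapped throughout, and the highest and the lowest library were TKO_48h replicate 2 and TKO_96h replicate 3. In TKO_40h against WT_40h the log2 fold change was -0.51 with a 95% interval from -2.11 to 1.10, and in TKO_96h against TKO_40h 0.32, from -1.30 to 1.95. At this depth a change of the size seen for Prdm1 or Tfap2c was not detectable in Nanos3. The means ordered as TKO_48h (2.73 ± 1.73 CPM), WT_40h (2.00 ± 0.80), TKO_96h (1.76 ± 1.28) and TKO_40h (1.40 ± 0.519), with no neighbours that differed past the threshold.

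Dnd1 (ENSMUSG00000044595, chromosome 18, 36763671 to 36766214, minus strand) encodes an RNA-binding protein that recruits the CCR4-NOT deadenylase to its targets and whose loss depletes germ cells. It rested on 12 to 60 counts in a library. It was at 3.56, 4.67 and 4.01 CPM in WT_40h, 3.46, 1.60 and 3.37 CPM in TKO_40h, 7.22, 4.55 and 5.11 CPM in TKO_48h, and 4.38, 2.52 and 7.91 CPM in TKO_96h. All TKO_40h libraries were below all WT_40h and all TKO_48h libraries, and TKO_96h spanned nearly the whole range. The difference of TKO_40h from WT_40h was a log2 fold change of -0.53 (95% interval -1.57 to 0.51, adjusted p = 0.69), and that of TKO_48h from TKO_40h 0.99 (-0.05 to 2.03, adjusted p = 0.29). In the order of the means, TKO_48h (5.63 ± 1.41 CPM), TKO_96h (4.94 ± 2.74), WT_40h (4.08 ± 0.559) and TKO_40h (2.81 ± 1.05), no neighbours differed past the threshold. Exons of Dnd1 share 140 bases with those of Wdr55 on the opposite strand. The library kit marks strand, but whether the counting used it is not given in the sources used here, so reads there may belong to either gene.

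Between genotypes at 40 h, 0 of 5 members were called with edgeR, where 3.1% of all genes were called (1.62% higher, 1.48% lower). At an unadjusted p under 0.05 the count was 1 (Prdm1), where 15.6% of all genes had one, and with DESeq2 it was 0, where 5.61% of the genes given an adjusted p were called. Between TKO_48h and TKO_40h, 0 of 5 were called with edgeR (5.49% of all genes, 2.57% higher and 2.92% lower), 2 had an unadjusted p under 0.05 (Prdm1 and Tfap2c; 19.3% of all genes), and DESeq2 called 1 (Prdm1; 7.59% of genes). For TKO_48h against WT_40h, where genotype and priming time differ together, the counts were 0 with edgeR (5.66% of all genes, 2.84% higher and 2.82% lower), 1 unadjusted (20.1%) and 1 with DESeq2 (9.69%), Tfap2c in both.

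With 96 h of priming, 2 of 5 members were lower and 0 higher against TKO_40h, beside 12.1% of all genes called, 4.94% higher and 7.2% lower. The same 2 genes, Prdm1 and Tfap2c, were lower against TKO_48h (19.5% of all genes called, 8.82% higher and 10.7% lower) and against WT_40h (19.2% called, 9.1% higher and 10.1% lower). They were also the 2 of 5 called in the test over all 4 groups, where 25.5% of all genes were called. These comparisons share the TKO_96h libraries. Each of the 3 calls of Prdm1 and of Tfap2c was kept when any 1 of the 12 libraries was left out, with an adjusted p of at most 0.042 for Prdm1 and 0.045 for Tfap2c. In bulk samples, fewer cells of a type and less RNA per cell cannot be told apart.

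The ratio of the counts of 2 members within a library does not depend on how libraries are scaled. Counts of Prdm1 per count of Prdm14 were 1.25, 1.85 and 2.46 in WT_40h, 2.29, 1.58 and 1.42 in TKO_40h, and 2.84, 1.78 and 1.74 in TKO_48h. They were 0.673, 0.526 and 0.758 in TKO_96h, so that each TKO_96h library had a lower ratio than all 9 other libraries. Counts of Tfap2c per count of Prdm14 were 1.30 to 2.61 in TKO_96h, which overlaps the 2.25 to 3.26 of WT_40h but not the 2.81 to 5.14 of TKO_40h or the 2.96 to 5.03 of TKO_48h. The log2 ratio to Prdm14 in TKO_96h differed from that in TKO_40h by -1.42 for Prdm1 and by -1.18 for Tfap2c. Each gave p = 0.1 in a two-sided exact permutation test (adjusted p = 0.24 over 12 such tests), and 0.1 is the smallest p that 3 against 3 libraries allow. The ratio of Prdm1 to Tfap2c differed by -0.24 in the same comparison (exact permutation p = 0.8), with overlap between the groups. Between the genotypes at 40 h that ratio was 0.357 to 0.505 in TKO_40h and 0.556 to 0.764 in WT_40h, without overlap, a log2 difference of -0.53 at the smallest p (exact permutation p = 0.1, adjusted p = 0.24).

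**Figure D3:**
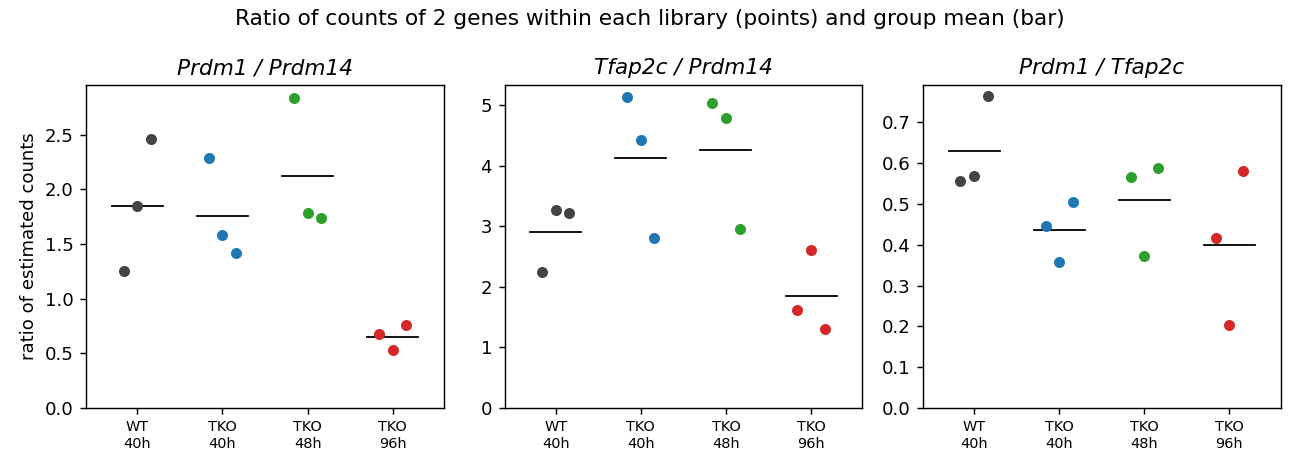
Ratio of the estimated counts of 2 genes within each library (vertical axis, linear from 0; not corrected for transcript length) for the 4 groups, with the group mean as a bar. Prdm1 over Prdm14 lies between 0.526 and 0.758 in TKO_96h and from 1.25 up in all other libraries.

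Transcripts of 1 gene were split unevenly by the quantification, and the split was not used for any comparison. Prdm14 has a single transcript in GENCODE M21. Among the 6 transcripts of Tfap2c, Tfap2c-201 held 11.2 to 98.9% of the counts of the gene in a library. The share of Prdm1-201 in the Prdm1 counts ran from 3.1 to 65.9%. Nanos3-201 held from 0 to 100% of the few Nanos3 counts. Of all Dnd1 counts, 36.7% went to its protein-coding transcript and 46.1 and 17.2% to transcripts with a retained intron. Of the 31-base words in the transcripts of each member, 0.22% (Prdm1), 0.95% (Prdm14) and 3.25% (Dnd1, shared with the pseudogene Dnd1-ps) also occur in transcripts of another gene, and 0 of those of Tfap2c and Nanos3.

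Among relatives of the members, 4 AP-2 genes were tested. In TKO_96h against TKO_40h, 1 of them, Tfap2c, was called lower, beside 7.2% of all genes. Tfap2e was at 0.373 against 1.10 CPM (-1.52 ± 1.12, adjusted p = 0.44). Tfap2b was at 1.83 against 1.44 CPM (0.35 ± 0.97, adjusted p = 0.87). At these low levels both SEs exceeded the fall estimated for Tfap2c. Tfap2a, the relative of Tfap2c in ectoderm, was at 12.3 ± 1.75 against 15.9 ± 3.10 CPM (-0.37 ± 0.29, adjusted p = 0.47). Nanos1 was at 7.80 to 9.02 CPM in the group means and was not called in any comparison, and Nanos2 had 0 counts in every library.

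The signals and factors upstream of the 5 genes were at 14 of 16 above the filter. Between the genotypes at 40 h, 0 of 14 were called with edgeR (3.1% of all genes). An unadjusted p under 0.05 was found for 4 (15.6% of all genes), and DESeq2 called 2 (5.61% of genes). In TKO_96h against TKO_40h 3 were lower and 0 higher (7.2% and 4.94% of all genes), with a median of -0.36. They were Otx2, an epiblast factor known to hold back germ cell fate (40.5 ± 2.28 against 92.8 ± 4.26 CPM, -1.20 ± 0.12, adjusted p = 1.4e-06), Lin28a, an RNA-binding protein known to let Prdm1 be made by blocking let-7 (-0.55 ± 0.11, adjusted p = 0.0023), and the BMP receptor Bmpr2 (-0.44 ± 0.14, adjusted p = 0.043). In TKO_48h against TKO_40h, Lin28a and Lin28b were lower (-0.55 ± 0.11 and -0.64 ± 0.19, adjusted p = 0.0071 and 0.048). The BMP effectors Smad1, Smad5 and Smad4 were not called in TKO_96h against TKO_40h, at -0.17 ± 0.18, 0.00 ± 0.15 and -0.19 ± 0.12, and were named after their values were seen. The mesoderm factor T stayed under the filter.

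Nuclear partners of PRDM1 and PRDM14, such as the methyltransferase Prmt5 and the co-repressor Cbfa2t2, had 0 of 14 members called with edgeR between the genotypes at 40 h. There, 3 passed unadjusted and 0 with DESeq2. Beside them, 3.1% of all genes were called with edgeR and 15.6% passed unadjusted, and DESeq2 called 5.61% of the genes given an adjusted p. Between TKO_48h and TKO_40h the counts were 0 with edgeR (5.49% of all genes), 5 unadjusted (19.3%) and 0 with DESeq2 (7.59% of the genes given an adjusted p). In TKO_96h against TKO_40h 1 was higher and 2 lower (4.94% and 7.2% of all genes), with a median of 0.15. All 3 belong to Polycomb complex PRC2: Eed (0.95 ± 0.26, adjusted p = 0.018), Suz12 (-0.40 ± 0.10, adjusted p = 0.014) and Jarid2 (-0.30 ± 0.09, adjusted p = 0.04). Genes of the deadenylase and 3′ UTR machinery with which NANOS3 and DND1 act had 0 of 14 called with edgeR in TKO_96h against TKO_40h (median -0.04), beside 12.1% of all genes. An unadjusted p under 0.05 was found for 2 of them (25.4% of all genes), and DESeq2 called 0 (14.2% of genes). Between the genotypes at 40 h, 1 of 14 was lower (1.48% of all genes), Ago2, the slicing Argonaute (-0.51 ± 0.11, adjusted p = 0.017).

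Early germ cell genes moved in both directions beside Prdm1 and Tfap2c. In TKO_96h against TKO_40h, 6 of 17 were higher and 2 lower, beside 4.94% and 7.2% of all genes, with a median of 0.41 (0.00 over all genes). Dppa3 (Stella), a germ cell and oocyte factor, was lower at 18.5 ± 2.12 against 51.5 ± 5.44 CPM (-1.47 ± 0.20, adjusted p = 6.5e-05), as was the pluripotency factor Klf2 (-0.79 ± 0.12, adjusted p = 2e-04). The membrane protein gene Ifitm3 was higher, at 44.9 ± 5.15 against 16.4 ± 1.40 CPM (1.46 ± 0.23, adjusted p = 0.00025). In TKO_48h against TKO_40h, 3 of 17 were higher and 0 lower (2.57% and 2.92% of all genes): Ifitm1 (1.15 ± 0.22, adjusted p = 0.0048), Ifitm3 (1.17 ± 0.23, adjusted p = 0.0053) and the receptor gene Kit (0.56 ± 0.15, adjusted p = 0.031). Between the genotypes at 40 h, 2 of 17 were higher in TKO (Dppa3 and Zfp42) and 1 lower (Kit), beside 1.62% and 1.48% of all genes.

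**Figure D4:**
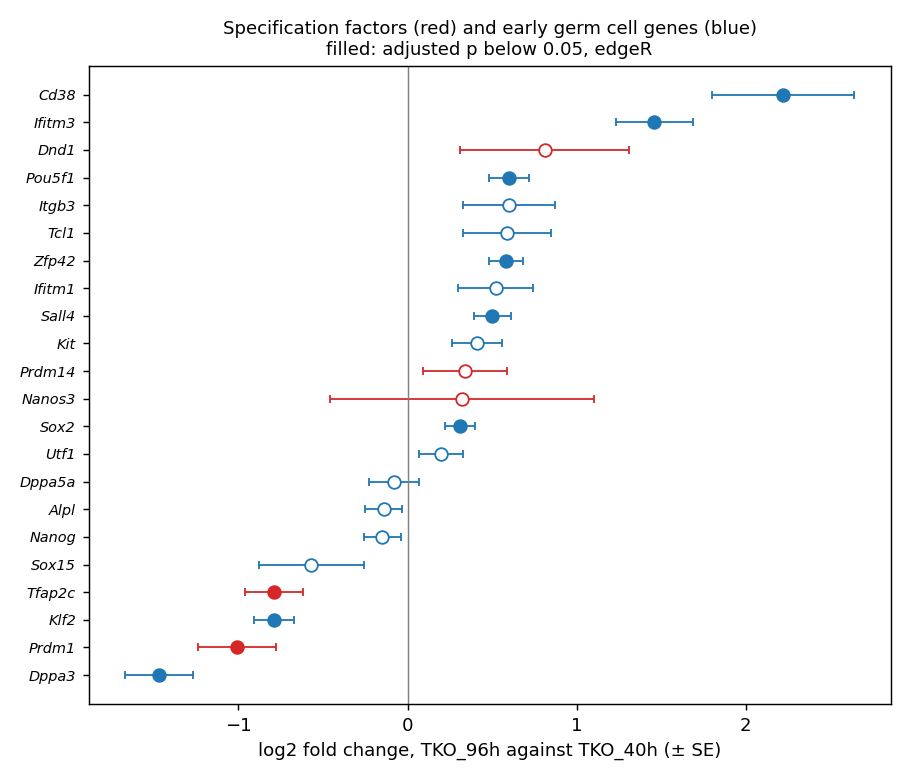
Log2 fold change in TKO_96h against TKO_40h with its SE (horizontal axis) for the 5 specification factors (red) and 17 early germ cell genes (blue), filled where called by edgeR. Tfap2c, Klf2, Prdm1 and Dppa3 are called on the lower side, from -0.79 to -1.47, and 6 early germ cell genes on the higher side.

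Of 7 genes that PRDM14 is known to repress, 1 was higher and 3 lower in TKO_96h against TKO_40h (median -0.07), beside 4.94% and 7.2% of all genes. Dnmt3l, the partner of the de novo methyltransferases, was lower (-1.43 ± 0.12, adjusted p = 6.4e-08), as was the FGF receptor Fgfr2 (-2.02 ± 0.29, adjusted p = 0.00011). Uhrf1, the cofactor of maintenance methylation, was higher (0.49 ± 0.10, adjusted p = 0.0028). The third lower gene was Dnmt3b (-0.57 ± 0.17, adjusted p = 0.035), which with Dnmt3a is both in this list and among the genes targeted in TKO. Of 11 tested somatic genes that germ cell precursors keep silent, 1 was higher and 0 lower in TKO_40h against WT_40h (1.62% and 1.48% of all genes). It was Hand1, a mesoderm and trophoblast factor (10.2 ± 3.12 against 2.00 ± 0.72 CPM, 2.35 ± 0.43, adjusted p = 0.0047). In TKO_96h against TKO_40h, Hand1 was lower (-1.73 ± 0.42, adjusted p = 0.0089), 0 were called higher and the median was -1.36. That median is the value of Hoxb1, a gene of few counts. Hoxb1 was at 0.997 CPM in TKO_96h and 2.58 CPM in TKO_40h on average (SE 0.77, adjusted p = 0.29). Evx1, Msx1, Msx2 and Tbx6 leaned higher without a call. The Hox gene Hoxb2 joined Hand1 as lower in TKO_96h against TKO_48h (-2.63 ± 0.82, adjusted p = 0.029), where 10.7% of all genes were called lower.

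Cell identity was checked with marker lists that leave out the 5 genes, each given as the range of its summed TPM in the libraries of a group and the calls in TKO_96h against TKO_40h. Over all genes, 4.94% were called higher and 7.2% lower in that comparison. The 11 germ cell markers, some of them shared with stem cells, summed to 598 to 673 TPM (WT_40h), 764 to 814 (TKO_40h), 606 to 722 (TKO_48h) and 907 to 1113 (TKO_96h). Pou5f1 made up most of that sum, with a mean of 420 TPM in TKO_40h and 627 TPM in TKO_96h. Of the 11, 4 were higher in TKO_96h (Ifitm3, Pou5f1, Sall4 and Sox2) and 2 lower. The lower ones were Dppa3 and Ddx4 (Vasa), an RNA helicase of the germ line (16.4 CPM against 37.2 CPM on average, -1.19 ± 0.18, adjusted p = 0.00023). Germ cell genes were thus found on both sides, with Ifitm3 at 1.46 ± 0.23 (adjusted p = 0.00025). The 8 naive stem cell markers summed to 356 to 372 TPM in TKO_40h and 458 to 485 in TKO_96h, with 5 higher and 1 lower.

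Markers of other states and tissues also differed between TKO_96h and TKO_40h. Epiblast markers summed to 122 to 151 TPM in TKO_40h and 56.6 to 67.3 in TKO_96h. Of 7, 6 were lower and 0 higher, with a median log2 fold change of -1.43, among them the growth factor gene Fgf5 (-3.81 ± 0.31, adjusted p = 6.6e-08) and the WNT effector gene Lef1 (-2.95 ± 0.18, adjusted p = 7.1e-10). Another of the 6 was Dnmt3b, which is among the genes targeted in TKO. Endoderm markers, a tissue that also uses Prdm1, summed to 18.2 to 20.2 TPM in TKO_40h and 5.09 to 7.35 in TKO_96h, with 4 of 8 tested lower and 0 higher. Of the 9 listed, Foxa2 stayed under 1 TPM throughout. Surface ectoderm markers, a tissue that uses Tfap2c, summed to 106 to 115 TPM in TKO_40h and 40.2 to 50.4 in TKO_96h. Epcam alone had a mean of 58.8 TPM in TKO_40h and 22.3 TPM in TKO_96h. Of 8 tested, 4 were lower and 0 higher, while Krt5, Trp63 and Tfap2b stayed under 1 TPM in every library. Trophoblast markers, another tissue with Tfap2c, summed to 13.5 to 17.7 and 7.14 to 11.8 TPM, with 2 of 6 lower (Hand1 among them) and 0 higher, and Cdx2, Plac1 and Tpbpa stayed under 1 TPM. Neural markers summed to 26.5 to 37.9 TPM in TKO_40h and 45.7 to 51.1 in TKO_96h, with 2 of 4 tested higher, the filament gene Nes (1.04 ± 0.15, adjusted p = 0.0001) and the tubulin gene Tubb3 (1.41 ± 0.25, adjusted p = 0.00094), and 0 lower. Mesoderm markers summed to 13.0 to 16.6 and 13.6 to 22.2 TPM, with Hand1 (lower) the 1 of 6 called. Bmp4 alone had a mean of 7.74 TPM in TKO_40h and 14.4 TPM in TKO_96h. The mesoderm markers T, Mixl1, Kdr and Foxf1 and the neural markers Neurog2 and Olig2 stayed under 1 TPM in every library. The part of these markers in the fall of Prdm1 and Tfap2c was not tested. In TKO_48h against TKO_40h, 0 of 8 endoderm markers were called with edgeR, beside 5.49% of all genes (median -0.10). An unadjusted p under 0.05 was found for 1 (19.3% of all genes), and DESeq2 called 0 (7.59% of genes). Of the 8 surface ectoderm markers, Krt8 was higher (0.80 ± 0.19, adjusted p = 0.017) and Grhl2 lower (-1.23 ± 0.17, adjusted p = 0.00028). Their median was -0.11. Over all genes, 2.57% were called higher and 2.92% lower in this comparison. Of 7 epiblast markers, 4 were lower in TKO_48h and 0 higher (2.92% and 2.57% of all genes), with a median of -0.58. Their sum in TKO_48h was 68.0 to 83.7 TPM.

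For each member, the 3 genes of most similar pattern were taken among those with a mean of at least 5 CPM, by the root mean square difference of centred log2 CPM over the 12 libraries. For Prdm1, whose own spread was 0.707, they were Fam162a, Clybl and Parva, at differences of 0.233 to 0.239. Fam162a was at 124 ± 7.19, 93.6 ± 6.67, 134 ± 11.3 and 44.9 ± 8.15 CPM in WT_40h, TKO_40h, TKO_48h and TKO_96h. For Tfap2c (spread 0.50) they were Otub2, Nucb2 and Myo6, at 0.202 to 0.216. Myo6, an actin motor gene, was at 45.5 ± 2.52, 52.8 ± 5.79, 76.1 ± 4.19 and 33.1 ± 1.13 CPM in the same order. For Prdm14 (spread 0.301) Tedc2 was nearest, at 0.172. The nearest genes were farther off for Nanos3 (Gmip, 0.395, spread 0.686) and Dnd1 (Ccdc92b, 0.333, spread 0.552), the members with the fewest counts.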

How the data were processed

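The submitters' processing notes name Trim Galore 0.6.2, kallisto and the build GRCm38. For kallisto, the version, transcript set and strand setting: not given in the sources used here. RNA was extracted with Trizol, and libraries came from a stranded total RNA kit, per the labels' protocols. Per the file headers, each deposited table lists transcripts with their estimated counts, not scaled to depth by the authors, effective lengths in bases, and TPM scaled by the authors' run to length and depth. Of 119414 transcripts, 97.8% matched GENCODE M21 by ID; unmatched ones held 2.68 to 4.32% of the counts. Estimated counts were added up over the transcripts of a gene, then rounded. The filter was filterByExpr, with groups, a minimum count of 10 and a minimum total of 15, and kept 16178 genes. edgeR 4.0.16 in R 4.3.3 was fitted to all 12 libraries with 1 mean per group and TMM factors of 0.927 to 1.063. Tests are two-sided, and the SE is the absolute log2 fold change over the square root of F. On simulated counts for TKO_40h against WT_40h (15697 genes, correlation between genes not simulated) the procedure recovered 65% of genes changed 2-fold and 97% of those changed 4-fold, with 5.3% of calls false. The changed genes were drawn from those with a mean of at least 5 CPM. Genes of lower level, such as Nanos3, were thus not covered by these recovery rates. Python 3.11.15 with pandas 2.3.3 and matplotlib 3.10.9 was used for tables and plots.

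The members and gene lists were chosen with earlier results of these data known. Named genes are the 5 members, up to 3 called genes of each list and comparison from the smallest adjusted p on, the 2 of highest CPM in lists with no call, the targeted genes and the 3 most similar genes per member (the text leaves out part of these); other names are said to be chosen after their values were seen or illustrate a marker list. Alternatives were DESeq2 1.42.0, RLE size factors, no filter, a robust fit, an effective length offset, a replicate block, protein-coding genes alone, only the groups compared and each library left out in turn. The list of genes related to Prdm1 and Prdm14 is not reported here.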

Additional observations from a re-analysis of the deposited data

How the results depend on the processing

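The calls of Prdm1 and Tfap2c in TKO_96h, and in the test over 4 groups, held under the alternatives run, apart from Tfap2c against TKO_40h with the effective length offset (log2 fold change -0.63, adjusted p = 0.079). Some differences that were not called passed elsewhere. For Prdm1 in TKO_48h against TKO_40h these were no filter on low counts (0.71) and DESeq2 (0.72). For Tfap2c in TKO_48h against WT_40h they were no filter (0.55), the robust fit (0.55), protein-coding genes alone (0.55), DESeq2 (0.55) and the replicate block (0.56, adjusted p = 0.021). With the replicate block Tfap2c also passed in TKO_48h against TKO_40h (0.50, adjusted p = 0.039). Replicate numbers were taken as names alone, since deviations of same-numbered libraries correlated at -0.06 to 0.051 over 18 pairs. Tfap2c in TKO_40h against WT_40h turned to -0.07 with the length offset. Calls over all genes moved more: across the alternatives other than leaving out a library they ran from 75 (length offset) to 1279 (only the groups compared) for TKO_40h against WT_40h (501 as reported), and with the length offset they were 203 (888 as reported) for TKO_48h against TKO_40h, 238 (916) for TKO_48h against WT_40h, 828 (1965), 1639 (3157) and 1467 (3099) for TKO_96h against TKO_40h, TKO_48h and WT_40h, and 1872 (4119) for the test over 4 groups. Without 1 library they ran, in the same order, from 181 to 667, 324 to 1107, 396 to 1540, 1210 to 2270, 2344 to 2991, 2084 to 3447 and 3309 to 4518. They moved by over 1.5 times in TKO_40h against WT_40h without any library of these groups (181 to 217), in TKO_48h against TKO_40h without any TKO_40h library or TKO_48h replicate 1 or 3 (324 to 551), in TKO_48h against WT_40h without any library of these groups (396 to 441, and 1540 without TKO_48h replicate 2), and in TKO_96h against TKO_40h without TKO_40h replicate 3 (1210).

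With each library left out in turn, the log2 fold change ranged from 0.64 to 0.85 for Prdm1 in TKO_48h against TKO_40h, the call being made without TKO_48h replicate 2 or TKO_96h replicate 2. It ranged from 0.47 to 0.69 for Tfap2c in TKO_48h against WT_40h, called without any of the 3 TKO_96h replicates (adjusted p = 0.043 to 0.048). Directions turned, without a call, for Tfap2c in TKO_40h against WT_40h (-0.04 to 0.20), for Prdm14 in TKO_48h against WT_40h (-0.17 to 0.21), TKO_96h against TKO_48h (-0.25 to 0.13) and TKO_96h against WT_40h (-0.14 to 0.05), for Nanos3 in TKO_48h against WT_40h (-0.18 to 0.78), TKO_96h against TKO_40h (-0.35 to 0.77) and TKO_96h against WT_40h (-0.86 to 0.26), and for Dnd1 in TKO_96h against TKO_48h (-0.69 to 0.14) and TKO_96h against WT_40h (-0.24 to 0.60). Depth limits Nanos3 and Dnd1. At the mean count of a group, counting error alone gives a coefficient of variation of 22.7 to 30.6% for Nanos3. For Dnd1 it gives 16.4 to 21.3%. In libraries with fewer counts than the mean of their group it is larger. Reads carry no molecular identifiers, so this covers counting error only.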
